A study of Mus musculus with 22 samples.

Results

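*Lypd1*, *Crim1*, *Kif26b*, *Gnb4* and *Wdr66* are 5 of the 39179 gene identifiers counted in the RNA-sequencing of *Phf8* knockout (KO) and wild type (WT) mice and cells. They were chosen by their counts in prefrontal cortex, which were higher in KO than in WT samples, and because the study did not display them. The rise in that tissue is therefore given here as a description without a test. Their levels across the other tissues and the effect of the KO outside the prefrontal cortex were not part of that choice.

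PHF8 is a histone demethylase encoded on the X chromosome. Its PHD finger binds trimethylated lysine 4 of histone H3, a mark of active promoters, and its JmjC domain removes methyl groups from repressive histone marks. The KO allele lacks a pair of exons of that catalytic domain. It was made in clones of the male V6.5 embryonic stem cell (ESC) line by transient Cre expression, so the deletion is present in every cell of the mouse and is not limited to neurons. Counts per gene include reads from the exons that remain.

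The data comprised 22 samples labelled with the strain background B6x129SvJ. Prefrontal cortex (PFC) and ventral striatum (STR) came from mice of 2 months, with 3 WT and 3 KO samples in each region. Neural progenitor cells (NPCs, 3 WT and 3 KO) were grown as a monolayer from embryos at E16.5, and ESCs (2 WT and 2 KO) were cultures from outgrowths of blastocysts kept on gelatin and feeder cells. How these outgrowths relate to the V6.5 clones is not stated, so what else sets WT and KO ESCs apart is not known. The labels give no treatment, and WT and KO differed in the *Phf8* allele alone as far as they state. The labels do not say whether samples of a group came from separate animals or cultures, so a p-value here measures the spread between samples, which may be technical.

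Library depth, as counts on genes, ran from 5898286 to 15539811. *Phf8* was lower in every KO than in every WT sample of each tissue, with a log2 fold change between -1.37 in PFC and -1.79 in ESCs. Its false discovery rate (FDR) in edgeR's quasi-likelihood test was 0.00193 in PFC, 0.0956 in STR, 0.0285 in NPCs and 1 in ESCs. Of 14 markers of striatal projection neurons, 14 were higher in STR than in PFC at an FDR under 0.05. Markers of deep cortical layers were split, with 11 of 19 higher in PFC and 8 higher in STR at that threshold. The farthest to PFC was *Fezf2*, by 3.37 on the log2 scale (FDR 4.99e-11 in edgeR). One STR library stood apart, KO replicate 1, in which 12 hypothalamic markers summed to 298 CPM (counts scaled to library size). The other KO STR libraries, at 66.8 and 52.4 CPM, were also above the WT libraries, at 33.6, 27.2 and 32.9. Both ESC cultures numbered 2 stood apart as well, with 7 fibroblast markers at 3134 CPM in WT and 3883 in KO, against 137 and 126 in the cultures numbered 1.

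The 5 genes encode proteins of different known roles. LYPD1, also called LYNX2, is a GPI-anchored protein of the Ly6 family that binds nicotinic acetylcholine receptors and modulates their response. CRIM1 is a transmembrane protein with cysteine-rich repeats that binds bone morphogenetic proteins (BMPs) and regulates their processing and delivery to the cell surface. KIF26B is an atypical kinesin whose degradation is triggered by WNT5A signalling through ROR receptors. GNB4 is a beta subunit of heterotrimeric G proteins, which couple receptors to effectors together with a gamma subunit, and in the forebrain its gene is known as a marker of the claustrum. WDR66, also named CFAP251, is a WD-repeat protein of the radial spokes in the axoneme of motile cilia and sperm flagella.

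All 5 lie on autosomes, with positions on GRCm38. *Lypd1* (ENSMUSG00000026344) is on the minus strand at chr1:125867622-125913101, and *Kif26b* (ENSMUSG00000026494) is on the plus strand at chr1:178529125-178939200. *Crim1* (ENSMUSG00000024074) is on the plus strand at chr17:78200248-78376592, *Gnb4* (ENSMUSG00000027669) on the minus strand at chr3:32580332-32616585, and *Wdr66* (ENSMUSG00000029442) on the plus strand at chr5:123252102-123327484. The exons of *Lypd1* share 1202 bases, 17.1% of their length, with *Gpr39* on the opposite strand. *Gpr39* had at most 1 count in any brain sample, 0 in NPCs and at most 6 in ESCs. Exons of *Kif26b*, *Crim1* and *Wdr66* overlap a gene of the other strand over 6.19%, 2.05% and 1.46% of their length. The strand setting of the counting is not stated for all samples, so reads in these stretches cannot be assigned to one strand.

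PHF8 is known to bind promoters with many CpG dinucleotides, so the 250 bases before a start site are shown for the genes with an entry among the RefSeq promoters of GRCm38.p6. The sequences run 5′ to 3′ on the strand of the gene, and capitals mark each CpG. *Lypd1* has 3 start sites in RefSeq, of which the outermost is shown.
Lypd1: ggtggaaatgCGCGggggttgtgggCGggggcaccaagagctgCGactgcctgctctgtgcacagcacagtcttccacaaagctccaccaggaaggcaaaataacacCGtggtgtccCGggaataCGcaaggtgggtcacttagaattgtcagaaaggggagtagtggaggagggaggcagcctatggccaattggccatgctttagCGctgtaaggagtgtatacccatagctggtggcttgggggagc
Crim1: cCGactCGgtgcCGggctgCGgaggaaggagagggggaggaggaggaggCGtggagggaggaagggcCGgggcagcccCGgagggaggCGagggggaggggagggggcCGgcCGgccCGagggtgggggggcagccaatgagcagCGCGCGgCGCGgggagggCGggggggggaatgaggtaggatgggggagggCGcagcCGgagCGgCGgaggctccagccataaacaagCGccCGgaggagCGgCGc
Kif26b: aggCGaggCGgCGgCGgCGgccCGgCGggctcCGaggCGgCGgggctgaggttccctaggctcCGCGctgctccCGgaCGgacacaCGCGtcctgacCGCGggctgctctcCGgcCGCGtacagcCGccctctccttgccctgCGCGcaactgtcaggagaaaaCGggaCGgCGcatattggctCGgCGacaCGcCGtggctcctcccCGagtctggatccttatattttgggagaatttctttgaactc
Wdr66: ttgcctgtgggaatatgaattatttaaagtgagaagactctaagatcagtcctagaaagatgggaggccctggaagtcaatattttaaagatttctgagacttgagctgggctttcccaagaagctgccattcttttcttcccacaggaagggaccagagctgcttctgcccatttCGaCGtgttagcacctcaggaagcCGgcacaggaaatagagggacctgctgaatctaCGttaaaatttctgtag
These windows are chr1:125912929-125913178 for *Lypd1*, chr17:78199998-78200247 for *Crim1*, chr1:178528875-178529124 for *Kif26b* and chr5:123253538-123253787 for *Wdr66*. The window of *Kif26b* held 32 CpGs and that of *Crim1* 25, and 95.4% and 89.3% of 32851 RefSeq promoter windows of this length held fewer. *Lypd1* had 8 CpGs in the window shown and 9 and 14 before its other start sites, where the median window held 6. *Wdr66* had 4, with 37.8% of windows holding fewer, and its RefSeq start lies 1686 bases inside the gene as GENCODE draws it. The motif GGGCGG, read on both strands and able to overlap CpGs by its own letters, occurred in the windows of *Lypd1*, *Crim1* and *Kif26b* and in 32.7% of all windows. CCAAT occurred in the same 3 windows and in 33.8% of all, and TATAAA occurred in none of the 4 and in 12.4% of all. The 4 windows thus ranged from CpG-rich to CpG-poor starts.

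In PFC, each of the 5 genes was higher in every KO than in every WT sample. Of all 15364 genes tested there, 7.74% had every KO sample above every WT sample, and 25 genes (0.163%) were called higher in KO, among them these 5 by their choice. *Kif26b* ranked 2 among the 25 by fold change, *Wdr66* 9, *Lypd1* 12, *Gnb4* 16 and *Crim1* 22.

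*Kif26b* had 5.43, 5.96 and 3.65 CPM in the WT PFC samples (replicates 1 to 3) and 14, 9.69 and 9.92 in the KO samples, a 2.17-fold difference. The counts behind these values were low, from 21 to 62 in WT and from 74 to 113 in KO samples. KO replicate 1 was the highest of the 6 and WT replicate 3, the shallowest library of the series, the lowest. *Wdr66* had 14.1, 12.8 and 10.8 CPM in WT and 20.1, 19.1 and 21.1 in KO PFC samples, 1.58-fold higher. Here the KO samples lay closer together than the WT samples.

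*Lypd1* had 54.4, 42.5 and 58.2 CPM in WT and 69.9, 80.2 and 84.6 in KO PFC samples, 1.52-fold higher. The gap between the highest WT and the lowest KO sample was smaller than the range within either genotype. *Gnb4* had 33.9, 37.7 and 33.9 CPM in WT and 53.5, 46.1 and 55.2 in KO PFC, 1.46-fold higher. *Crim1* had 108, 114 and 101 CPM in WT and 143, 138 and 153 in KO PFC, 1.34-fold higher. For *Crim1* the gap between the genotypes was larger than the range within either genotype. For *Gnb4* the gap was larger than the range within the WT samples but smaller than that within the KO samples.

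**Figure D1:**
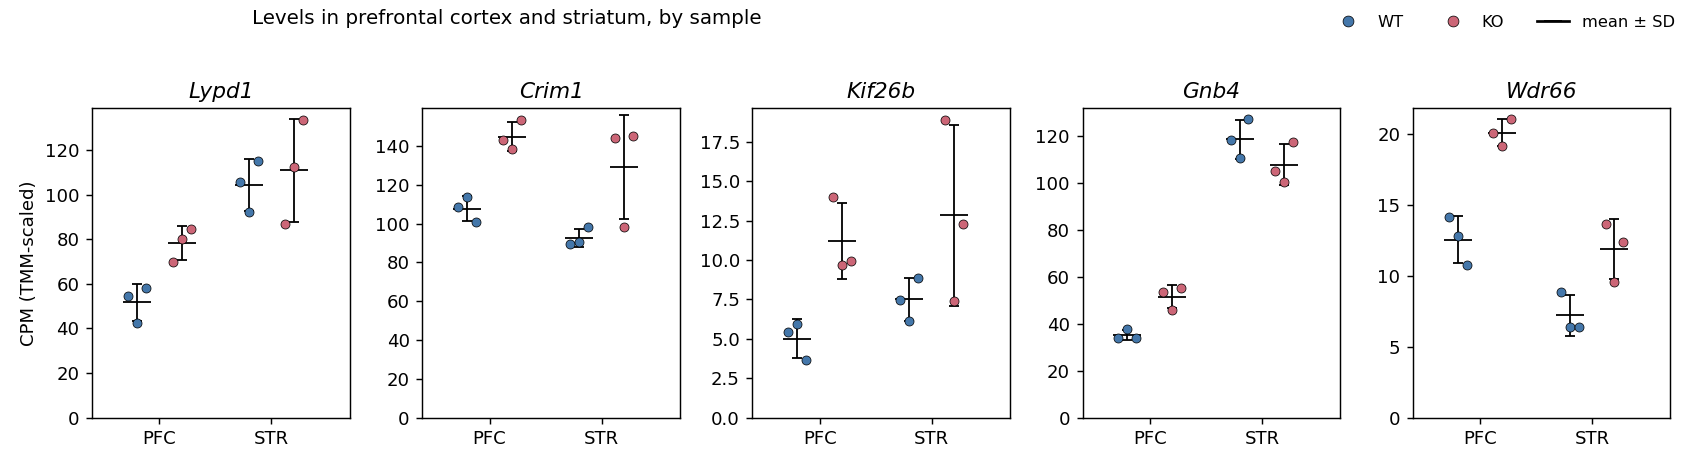
CPM (vertical axes, each from 0) of the 5 genes in prefrontal cortex (PFC) and ventral striatum (STR). Each point is 1 sample, with the mean and SD of the 3 samples of a genotype drawn as a bar, and the KO points lie above all WT points in PFC for all 5 genes but in STR only for *Crim1* and *Wdr66*.

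Bulk tissue was sequenced, so fewer cells of a type and less RNA per cell cannot be told apart. Markers of other cells moved with genotype in PFC. Oligodendrocyte markers summed to between 2115 and 2798 CPM in WT and between 1697 and 1816 in KO PFC. In edgeR 6 of 10 were called lower in KO, as were 0.475% of all genes tested in PFC. They were led by the myelin genes *Mog* (log2 fold change -0.95, FDR 0.00369), *Opalin* (-0.98, FDR 0.00472) and *Cldn11* (-0.64, FDR 0.0102). Of 8 astrocyte markers 1 was called lower, *Gfap* (-0.49, FDR 0.0114). Their part in the higher levels of the 5 genes was not tested.

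The libraries hold no layers, but layer markers give a view of the cortical neurons in each sample. Markers of deep layers summed to 1362, 1289 and 1465 CPM in WT and 1505, 1507 and 1562 in KO PFC. The KO sums were thus higher without overlap, as held for 7.74% of single genes tested in PFC. None of the 19 deep-layer genes was called, by an FDR under 0.05 in edgeR, and 5 had an unadjusted p under 0.05, as did 11.2% of all genes tested in PFC. Their median log2 fold change was 0.14, beside -0.02 for all genes. Markers of upper layers overlapped between genotypes, from 1312 to 1516 CPM in WT and from 1351 to 1451 in KO PFC, with 0 of 14 called and 1 at an unadjusted p under 0.05. Claustrum markers, of interest for *Gnb4*, summed to between 462 and 519 CPM in WT and between 512 and 534 in KO PFC, with overlap and 0 of 7 tested called. An unadjusted p under 0.05 was reached by 2 of these 7 in edgeR, beside 11.2% of all genes. Whether layer composition moved the 5 genes was not tested.

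In STR, none of the 5 genes was called in the comparison of KO with WT, which called 0 of 15476 genes (0%) by edgeR's quasi-likelihood test. At an unadjusted p under 0.05 there were 1346 genes (8.7%), and DESeq2 called 50 genes, with none of the 5 among them. *Crim1* and *Wdr66* were higher in every KO than in every WT sample, which held for 7.57% of all genes. *Kif26b*, *Lypd1* and *Gnb4* overlapped between genotypes.

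*Wdr66* had 8.86, 6.42 and 6.37 CPM in WT and 13.7, 9.60 and 12.4 in KO STR, a log2 fold change of 0.71 (SE 0.21, 95% interval 0.24 to 1.18, FDR 0.414). The lowest KO sample was just above the highest WT sample. *Crim1* had 89.6, 90.5 and 98.0 CPM in WT and 144, 98.4 and 145 in KO STR, a log2 fold change of 0.48 (SE 0.14, interval 0.16 to 0.80, FDR 0.414). KO replicate 2 was level with the WT samples and the other KO samples were well above. *Kif26b* had 7.48, 6.16 and 8.86 CPM in WT and 18.9, 7.39 and 12.3 in KO STR (log2 fold change 0.78, SE 0.32, FDR 0.54).

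The highest *Kif26b* value of all 12 brain samples was thus in the STR library with the hypothalamic markers. Without that library the log2 fold change in STR was 0.38 for *Kif26b* (SE 0.27, FDR 0.999), 0.39 for *Crim1* (SE 0.15, FDR 0.935) and 0.59 for *Wdr66* (SE 0.24, FDR 0.935). Without KO replicate 3 the changes of these genes, in the same order, were 0.80, 0.39 and 0.68. Without KO replicate 2 they were 1.06, 0.64 and 0.845, with FDRs of 0.131, 0.0531 and 0.156 in edgeR. Markers of ependyma and choroid plexus, cells that carry motile cilia or line the ventricles, summed to between 93.4 and 97.7 CPM in WT and between 106 and 126 in KO STR, with 0 of 7 tested called. The sum of hypothalamic markers was higher in every KO than in every WT STR library with or without KO replicate 1. With all libraries, 7.57% of single genes tested in STR had this pattern. Of the 6 hypothalamic markers tested, 6 were above 0 with a median log2 fold change of 2.92. In edgeR 5 had an unadjusted p under 0.05, beside 8.7% of all genes in STR, and 0 were called. The part of either cell source in these values was not tested.

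*Lypd1* and *Gnb4* differed less between genotypes in STR than their samples within a genotype. *Lypd1* had 106, 92.1 and 115 CPM in WT and 86.9, 112 and 133 in KO STR, so that the KO samples held both the lowest and the highest value. Its log2 fold change was 0.09 (SE 0.15, interval -0.25 to 0.43, FDR 0.921). *Gnb4* had 118, 111 and 127 CPM in WT and 105, 101 and 118 in KO STR, with a log2 fold change of -0.14 (SE 0.09, interval -0.33 to 0.05, FDR 0.711).

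The KO effect in PFC minus that in STR, on the log2 scale, was 0.71 for *Gnb4*, 0.55 for *Lypd1*, 0.37 for *Kif26b*, -0.02 for *Wdr66* and -0.03 for *Crim1*. These differences contain the values that chose the genes and were not tested. The differences for *Crim1* and *Wdr66* were smaller than the SE of either gene's change in STR.

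In NPCs, 3 of the 5 genes had enough counts to be tested, and *Kif26b* and *Wdr66* did not pass the expression filter. None of the 3 was called. The test called 1 of 14351 genes (0.00697%), *Phf8* itself, and 435 genes (3.03%) had an unadjusted p under 0.05. With the replicate number as a block, which the NPC samples share between genotypes, 3 genes were called and none of the 5 was among them. *Gnb4* had 49.6, 97.5 and 118 CPM in WT and 65.7, 56.1 and 101 in KO NPCs (log2 fold change -0.25, SE 0.36, FDR 1). It spread more between cultures of a genotype than between genotypes, and the cultures numbered 3 were the highest in both. *Crim1* had 36.7, 50.9 and 46.5 CPM in WT and 41.0, 31.7 and 46.3 in KO NPCs (-0.17, SE 0.18, FDR 1). *Lypd1* had 5.62, 2.66 and 3.62 CPM in WT and 3.18, 3.57 and 3.71 in KO NPCs (-0.19, SE 0.30, FDR 1). The intervals of these differences were -0.91 to 0.53 for *Lypd1*, -0.60 to 0.26 for *Crim1* and -1.12 to 0.61 for *Gnb4*, in the fit without a block. With the block the changes were -0.14 for *Lypd1* (SE 0.27, FDR 0.877 in edgeR), -0.17 for *Crim1* (SE 0.18, FDR 0.766) and -0.21 for *Gnb4* (SE 0.26, FDR 0.804).

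*Kif26b* was nearly silent in NPCs, with 6, 5 and 17 counts in WT and 9, 2 and 10 in KO cultures. Its pooled rate in KO was 0.748 times that in WT, with an exact 95% interval of 0.404 to 1.37 that covers counting error only. *Wdr66* had 3, 3 and 4 counts in WT and 9, 13 and 8 in KO NPCs. All 3 KO cultures were above all 3 WT cultures, which held for 3.81% of the genes tested in NPCs. The pooled rate of *Wdr66* in KO was 2.99 times that in WT (30 against 10 counts, interval 1.42 to 6.86). This interval, too, covers counting error only and leaves out the spread between cultures, so it is no test of the KO.

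In ESCs, *Crim1*, *Kif26b* and *Gnb4* were tested and none was called, as was none of 15080 genes (0%). At an unadjusted p under 0.05 there were 171 genes (1.13%), and DESeq2 called 3. *Crim1* had 10.7 and 42.7 CPM in the WT cultures numbered 1 and 2, and 10.4 and 48.5 in the KO cultures (log2 fold change 0.14, SE 1.11, FDR 1). *Kif26b* had 5 and 51 counts in WT and 9 and 61 in KO ESCs (0.47, SE 1.47, FDR 1). Both genes were thus several times higher in the cultures numbered 2 of both genotypes, where the fibroblast markers were also high, and their part in these levels was not tested. *Gnb4* had 15.8 and 25.2 CPM in WT and 18.4 and 30.4 in KO ESCs (0.25, SE 0.37, FDR 1), with the same order of cultures but a smaller gap. The interval for *Kif26b* was -3.80 to 4.74 in this fit without a block, so several-fold changes of this gene were not detectable by it. With the culture number as a block the change of *Kif26b* was 0.50 (SE 0.29) and that of *Crim1* 0.12 (SE 0.10). The numbers were not taken to pair the ESC cultures, so these values are an alternative only.

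*Lypd1* had 0 counts in both WT ESC cultures and 2 and 1 in the KO cultures. *Wdr66* had 2 and 3 counts in WT and 6 and 6 in KO ESCs, so that both KO cultures were above both WT cultures, as for 11.9% of the genes tested there. The pooled rate of *Wdr66* in KO was 2.41 times that in WT (12 against 5 counts). Its interval of 0.789 to 8.72, for counting error only, holds equal rates.

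**Figure D2:**
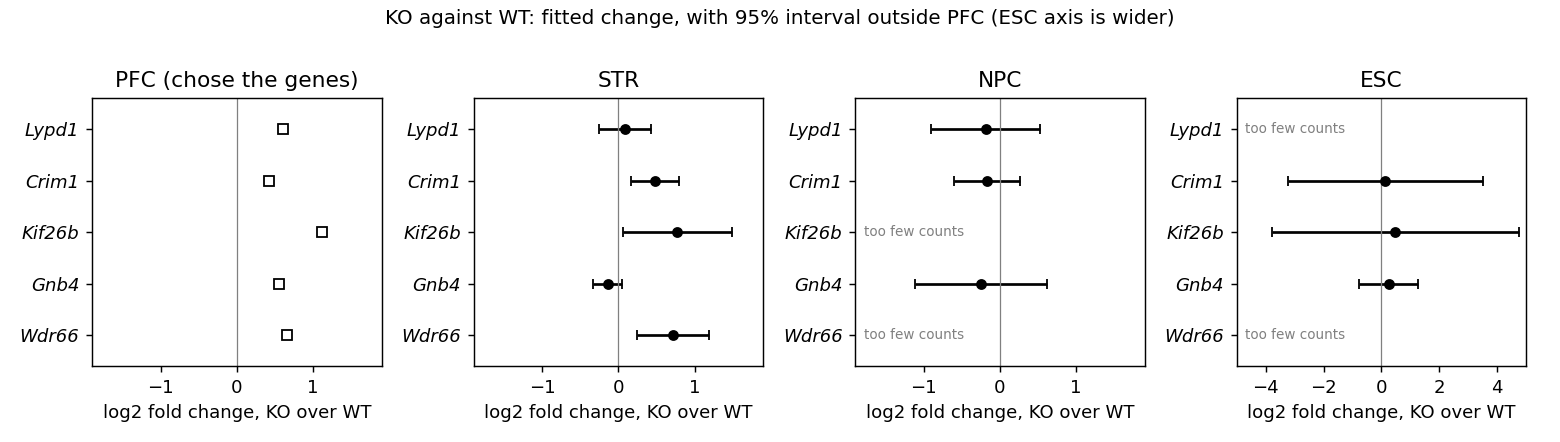
Log2 fold change of KO over WT (horizontal axes) for each gene in each tissue, from edgeR fits within the tissue. Open squares in PFC are the values that chose the genes, filled points carry the 95% interval (in STR it lies above 0 for *Crim1*, *Kif26b* and *Wdr66* before adjustment), genes marked as having too few counts were not fitted, and the ESC axis is wider than the others.

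*Wdr66* was the one gene of the 5 with every KO above every WT sample in STR, NPCs and ESCs as well as in PFC. Over STR, NPCs and ESCs this held for 12 of 18294 genes (0.0656%), and 17 genes (0.0929%) had the opposite pattern. After this pattern was seen, the 16 samples outside PFC were fitted together, with the KO difference averaged over the 3 tissues. *Wdr66* then had a log2 fold change of 1.17 (SE 0.20, interval 0.73 to 1.6), and its FDR of 0.387 in edgeR's quasi-likelihood test did not pass the threshold. The FDR was 0.623 in DESeq2 and 0.183 with a replicate block, and it ranged from 0.256 to 1 with single samples left out. The fit called 1 gene (0.00547%), *Phf8*, and 722 genes had an unadjusted p under 0.05. *Crim1*, *Kif26b*, *Gnb4* and *Lypd1* each had an FDR of 1 in that fit. *Wdr66* passed its expression filter through the STR counts, and did not pass in a fit of NPCs and ESCs only. The NPC and ESC libraries in the *Wdr66* average held 2 to 13 counts each, and STR alone gave a log2 fold change of 0.71.

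**Figure D3:**
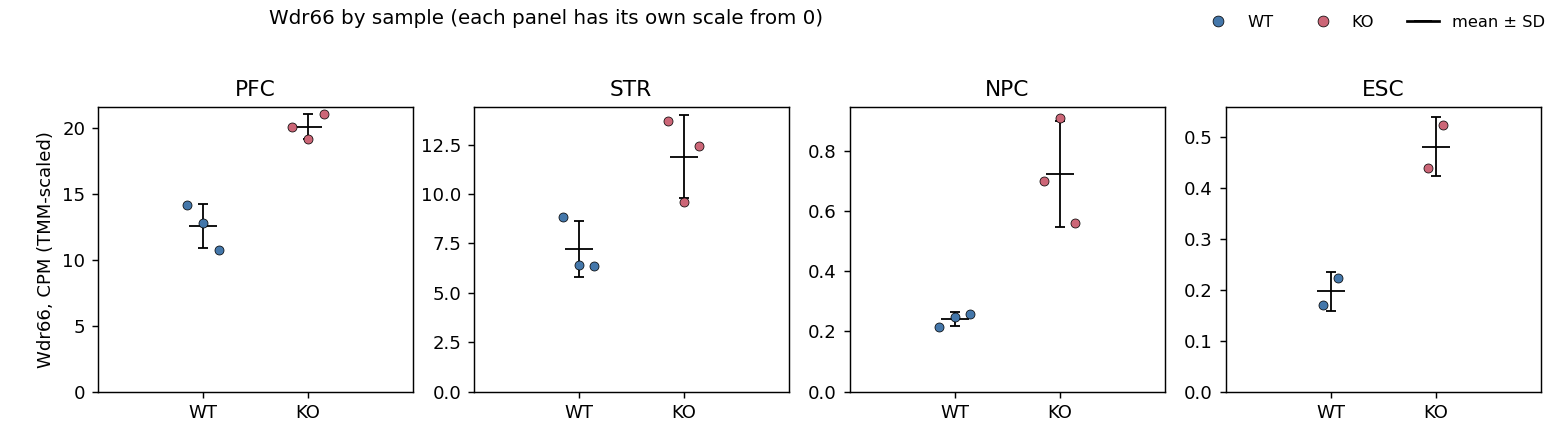
*Wdr66* in CPM (vertical axes, each panel with its own scale from 0) in the WT and KO samples of each tissue, with mean and SD. KO points lie above all WT points in every panel, at 2 to 13 counts per sample in NPCs and ESCs and at 46 to 162 in the brain samples.

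Motile cilium genes were followed as the company of *Wdr66* in the axoneme. None of the 18 tested in PFC, 22 in STR, 11 in NPCs or 14 in ESCs was called between genotypes. The summed level of the 25 genes counted was 176, 138 and 142 CPM in WT and 179.7, 177 and 173 in KO PFC, and in STR it was 255, 179.6 and 216 in WT and 259.7, 257 and 229 in KO. The genotypes overlapped in both regions, in PFC through WT replicate 1, which lay within the range of the KO samples. The median log2 fold change of these genes was 0.17 in PFC and 0.23 in STR, beside -0.02 and 0.002 for all genes. Changes above 0 were found for 15 of 18 in PFC and 18 of 22 in STR, beside 44.1% and 50.6% of all genes. In NPCs they were found for 7 of 11 and in ESCs for 8 of 14, beside 51.1% and 52.6% of all genes.

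Pathway genes around the other 4 were called in none of the 4 comparisons of KO with WT. For *Lypd1*, the 9 nicotinic receptor subunits counted summed to 209, 222 and 215 CPM in WT and 245, 247 and 252 in KO PFC. The KO sums were higher without overlap, as held for 7.74% of single genes tested in PFC. All 7 subunits that were tested had a log2 fold change above 0, where 44.1% of all genes tested in PFC did, with a median of 0.28. An unadjusted p under 0.05 was reached by 3 of them in edgeR, beside 11.2% of all genes, and 0 were called. *Chrna7* was at 0.48 (SE 0.15, FDR 0.188) and *Chrna5*, an accessory subunit of deep cortical layers, at 0.56 (SE 0.21, FDR 0.311). In STR, where *Lypd1* was at 0.09, all 5 nicotinic subunits tested were also above 0, as were 50.6% of all genes tested there. Their median was 0.39, beside 0.002 for all genes. In edgeR 2 of them had an unadjusted p under 0.05, as did 8.7% of all genes tested in STR, and 0 were called. In the Ly6 family itself 6 of 10 were above 0 in PFC, with a median of 0.04 and 0 called. For *Crim1*, BMP target genes had 0 of 7 above 0 in PFC, with a median of -0.26. In edgeR 4 of them had an unadjusted p under 0.05, as did 11.2% of all genes tested in PFC, but 0 were called. BMP ligands (3 of 8 above 0), receptors and SMADs (3 of 11) and extracellular regulators (5 of 13) had medians between -0.06 and -0.01 and 0 called. For *Gnb4*, G protein beta and gamma subunits had 8 of 13 and alpha subunits 7 of 12 above 0, with 0 called. For *Kif26b*, genes of WNT5A-ROR signalling and planar polarity had 10 of 18 and kinesins 12 of 26 above 0, with 0 called.

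Between the brain regions, 4 of the 5 genes differed over both genotypes, in a fit of all 12 brain samples. This comparison called 39.8% of 16028 genes, 19.8% higher in PFC and 19.9% higher in STR. *Gnb4* was far higher in STR, with a log2 fold change of PFC over STR of -1.35 (SE 0.06, FDR 4.56e-10). *Lypd1* was also higher in STR (-0.71, SE 0.11, FDR 9.89e-05), while *Wdr66* was higher in PFC (0.83, SE 0.12, FDR 6.14e-05). *Crim1* was slightly higher in PFC (0.25, SE 0.08, FDR 0.0291), a call that ended with any of 5 single samples left out. *Kif26b* did not pass the test (-0.32, SE 0.21, interval -0.77 to 0.14, FDR 0.262).

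Within each genotype the regions were also set side by side. In WT samples alone the log2 difference of PFC over STR was -1.71 for *Gnb4*, and in KO samples it was -0.995. For *Lypd1* it was -0.98 in WT and -0.43 in KO samples. *Kif26b* had -0.50 and -0.13, *Wdr66* 0.84 and 0.82, and *Crim1* 0.26 and 0.23. These values share the PFC samples that chose the genes and are given without a test.

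**Figure D4:**
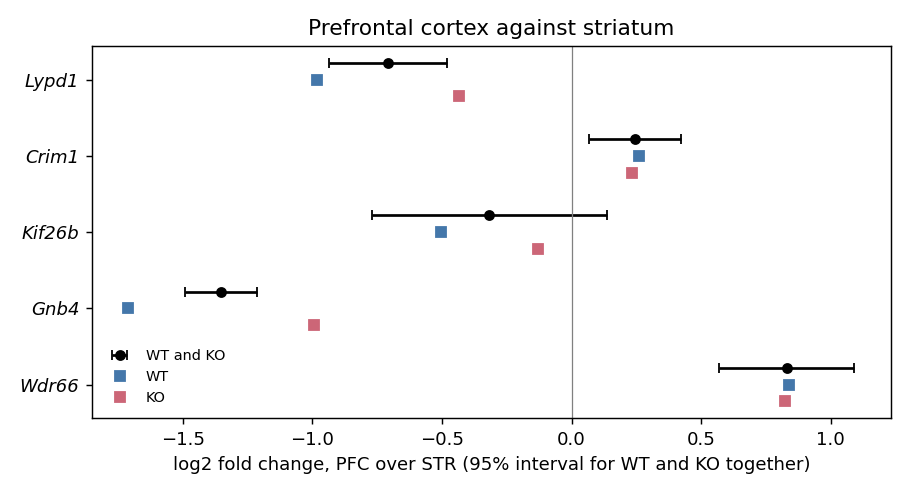
Log2 fold change of PFC over STR (horizontal axis) for each gene, with values above 0 higher in PFC. The black point with its 95% interval takes WT and KO samples together, and the squares give each genotype alone, which lie farther apart for *Gnb4*, *Lypd1* and *Kif26b* than for *Crim1* and *Wdr66*.

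Partner genes differed between the regions in both directions. *Gng7*, a gamma subunit known from striatal neurons, was higher in STR (-1.8, FDR 4.42e-12 in edgeR) as was *Gnb4*, and so was *Gng5* (-0.47, FDR 0.0158). *Gng2* (0.49, FDR 5.31e-05) and *Gng12* (0.46, FDR 4.03e-05) were higher in PFC. In all, 2 of 14 beta and gamma subunits were higher in PFC and 5 in STR, and 3 of 13 alpha subunits were called on each side, with *Gna14* (-2.06, FDR 0.000126) and *Gnal* (-1.21, FDR 5.77e-10), the alpha subunit coupled to striatal dopamine receptors, farthest to STR. Their opposites in PFC were *Gnaz* (0.38, FDR 1.57e-05) and *Gnaq* (0.33, FDR 0.000313).

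Among the Ly6 family of *Lypd1*, 5 of 10 genes were higher in PFC and 2 in STR. *Ly6e* (0.71, FDR 3.97e-07) and *Plaur* (0.83, FDR 0.0123) led in PFC, and *Cd59a* (-0.44, FDR 0.0354) and *Ly6h* (-0.35, FDR 0.000756) in STR, the side on which *Lypd1* lay. Of the nicotinic subunits, *Chrnb3* (3.65, FDR 5.09e-08) and *Chrna5* (2.99, FDR 8.82e-09) were far higher in PFC and *Chrna2* (-1.67, FDR 0.000205) in STR, with 3 of 7 called higher in PFC and 1 in STR.

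The regulators of BMPs, to which CRIM1 belongs, split between the regions, with 5 of 13 higher in PFC and 4 in STR. *Chrd* (1.31, FDR 5.13e-05) and *Chrdl1* (1.19, FDR 2.29e-05), which bind BMPs outside the cell, were higher in PFC as was *Crim1*, and *Grem1* (-1.81, FDR 6.55e-06) in STR. Of the ligands, *Bmp3* was higher in PFC (1.8, FDR 0.00369) and *Gdf11* (-0.51, FDR 0.00107) and *Bmp7* (-0.48, FDR 0.00166) were among 3 of 8 higher in STR. Of 11 receptors and SMADs, 1 was higher in PFC, *Acvr1* (0.35, FDR 0.000383), and 4 in STR, led by *Smad5* (-0.56, FDR 3.27e-05) and *Acvr2a* (-0.47, FDR 2.45e-05). Of 7 BMP target genes, *Msx1* (0.85, FDR 0.0017) and *Id2* (0.55, FDR 2.5e-05) were higher in PFC and *Id4* (-1.03, FDR 7.87e-10) in STR.

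Around *Kif26b*, 6 of 20 genes of WNT5A-ROR signalling and planar polarity were higher in each region. *Prickle1* (1.13, FDR 4.4e-09) and *Wnt5b* (0.58, FDR 0.041) led in PFC, and *Wnt11* (-2.08, FDR 0.00434) and the receptor *Ror1* (-1.38, FDR 0.00255) in STR. Of 26 kinesins, 12 were higher in PFC, led by *Kif4* (1.05, FDR 0.00119) and *Kif16b* (0.45, FDR 0.00476), and 3 in STR, led by *Kif27* (-1.40, FDR 1.36e-06) and *Kif7* (-0.83, FDR 0.00248).

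Motile cilium genes were called higher in STR more often than in PFC, the side on which *Wdr66* lay. Of 23 motile cilium genes tested, 12 were higher in STR, with *Ak7* (-2.52, FDR 3.84e-06) and *Spag16* (-2.42, FDR 0.000982) farthest. The single one called higher in PFC was *Dnah5* (0.90, FDR 2.12e-05), an outer dynein arm heavy chain. The median over the 23 was -0.53, beside -0.02 for all genes.

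Across all 4 tissues, levels were compared between genes as RPKM, read counts scaled to exon length and library size. *Crim1* was the highest of the 5 in PFC, STR, NPCs and ESCs, at a mean of 19.2 ± 3.32 RPKM (SD, n = 6) in PFC, 16.1 ± 3.85 (n = 6) in STR, 7.95 ± 1.31 (n = 6) in NPCs and 5.42 ± 3.81 (n = 4) in ESCs. In a fit of all 22 samples, PFC and STR did not pass the test for *Crim1* (FDR 0.574), nor did NPCs and ESCs (0.55 on the log2 scale, FDR 0.138), while STR was above NPCs (0.996 on the log2 scale, SE 0.289, FDR 0.00436), a call lost with WT samples only (0.69, FDR 0.104). The wide spread in ESCs was that between the cultures numbered 1 and 2, and NPCs were called above ESCs without the culture numbered 2 of WT (1.19, FDR 0.00338) or of KO (1.25, FDR 0.00139).

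*Lypd1* was far lower in cultured cells than in adult brain. It had 13.3 ± 2.12 RPKM in STR, 8.42 ± 2.12 in PFC and 0.60 ± 0.17 in NPCs (SD, n = 6 each), and 3 counts in all 4 ESC libraries together. STR was above PFC (FDR 0.000806) and PFC above NPCs by 3.77 on the log2 scale (SE 0.16, FDR 2.37e-13). The rate in NPCs was 62.9 times that in ESCs, with an exact interval of 21.3 to 307 for counting error only. The lowest PFC sample, at 5.48 RPKM, was still above the highest NPC sample, at 0.914.

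*Gnb4* followed another order, with 7.74 ± 0.70 RPKM in STR, 7.25 ± 2.48 in NPCs, 3.12 ± 0.70 in PFC (n = 6 each) and 2.07 ± 0.54 in ESCs (n = 4). STR and NPCs did not pass the test (0.10 on the log2 scale, interval -0.28 to 0.48, FDR 0.629). NPCs were above PFC (FDR 8.14e-06), and PFC was above ESCs by 0.57 (SE 0.22, FDR 0.0206). That call was lost without ESC WT replicate 1 (FDR 0.107), ESC KO replicate 1 (FDR 0.111) or PFC KO replicate 3 (FDR 0.0565). With WT samples only the difference was 0.34, a value that shares the PFC samples that chose the genes and is given without a test. *Gnb4* was the one of the 5 genes with a higher mean level in NPCs than in PFC.

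*Wdr66* had 1.66 ± 0.44 RPKM in PFC, 0.924 ± 0.293 in STR, 0.0608 ± 0.0363 in NPCs (n = 6 each) and 0.0446 ± 0.0219 in ESCs (n = 4). PFC exceeded STR (FDR 5.98e-05), and STR exceeded NPCs by 4.05 on the log2 scale (SE 0.17, FDR 9.35e-14), while NPCs and ESCs did not pass the test (FDR 0.452). *Kif26b* was low everywhere, at 0.60 ± 0.28 RPKM in STR, 0.504 ± 0.238 in PFC, 0.0447 ± 0.0254 in NPCs (n = 6 each) and 0.200 ± 0.185 in ESCs (n = 4). STR and PFC did not pass the test (FDR 0.667), and NPCs were below ESCs, with a log2 difference of -2.13 (FDR 0.00252). That call ended without the ESC culture numbered 2 of WT (-0.99, FDR 0.244) or of KO (-1.11, FDR 0.127), both rich in fibroblast markers. PFC was above ESCs by 1.23 (FDR 0.0287), a call lost without ESC WT replicate 1 (FDR 0.11), ESC KO replicate 1 (FDR 0.11), PFC WT replicate 2 (FDR 0.0557) or PFC KO replicate 1 (FDR 0.0554). With WT samples only this difference was 0.81, again without a test. STR was above ESCs by 1.54 (FDR 0.00813), a call lost with WT samples only (FDR 0.0649). Of 30 comparisons of 5 genes between 6 pairs of tissues, 25 were called, and 23 to 25 with a sample left out. Of all 18080 genes, 26.5% were called between PFC and STR, 82.6% between PFC and NPCs, 87.8% between PFC and ESCs, 82.7% between STR and NPCs, 88.1% between STR and ESCs and 80% between NPCs and ESCs.

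**Figure D5:**
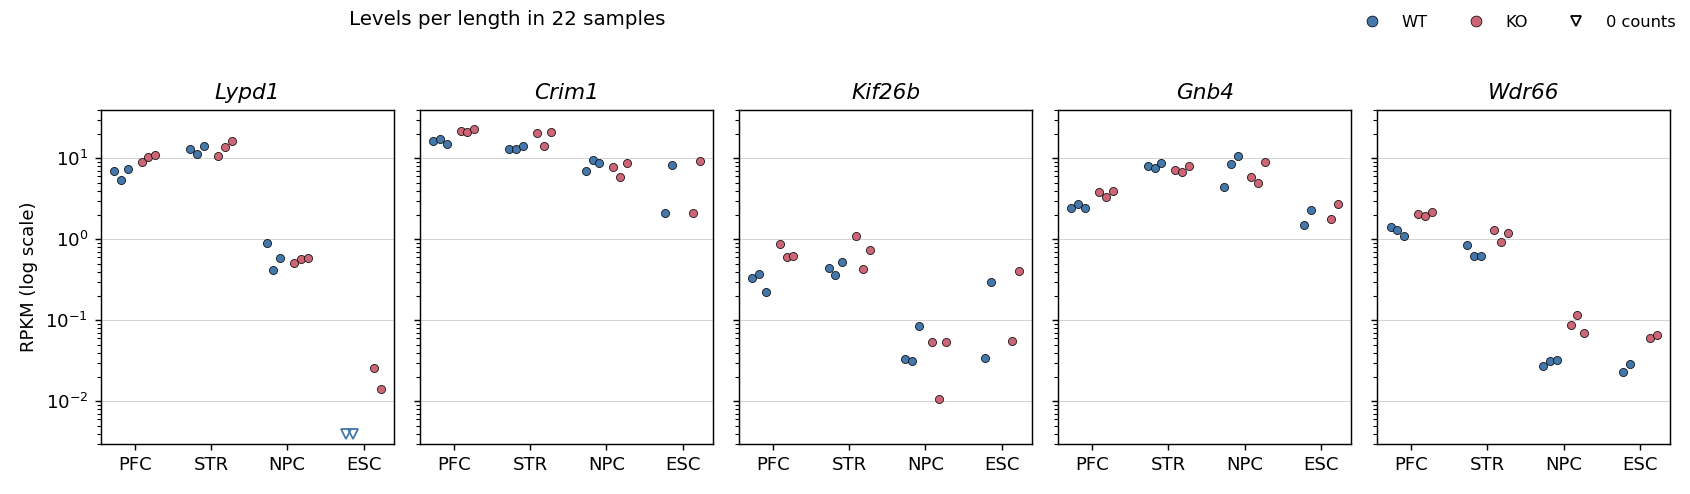
RPKM (vertical axis, logarithmic) of the 5 genes in every sample of PFC, STR, NPCs and ESCs, with WT and KO in separate colours and triangles for samples with 0 counts. *Lypd1* and *Wdr66* lie below every brain sample in all cultured cells, *Gnb4* in NPCs lies level with STR, and *Crim1* and *Kif26b* split the ESC cultures into a low and a high pair.

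The genes with the most similar course over the 22 samples were found by the root mean square (RMS) difference of log2(CPM + 0.5), each gene centred on its own mean, among 18075 other genes. For *Lypd1* these were *Smpd3* (RMS difference 0.27), *Lrrtm1* (0.353) and *Pnmal1* (0.367), where the SD of *Lypd1* itself was 2.87. *Wdr66* was followed most closely by *Ccdc85a* (0.36), *Rap1gap2* (0.362) and *Cdkl4* (0.389), with an SD of 1.88. For *Gnb4* the nearest were *Bend7* (0.367), *Gm11650* (0.376) and *Klhl36* (0.386), with an SD of 0.85, and for *Crim1* they were *Socs5* (0.312), *Osbpl5* (0.334) and *Ank* (0.347), with an SD of 0.945. *Kif26b* had no gene as near, with *Fibin* at 0.469, *Arhgap24* at 0.48 and *Gldn* at 0.51 and an SD of 1.46. None of the 5 was among the nearest genes of another, and their pairwise differences ran from 0.895 (*Crim1* and *Kif26b*) to 2.57 (*Lypd1* and *Gnb4*).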

How the data were processed

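RNA was taken from PFC, STR, NPCs and ESCs and sequenced as TruSeq libraries. The authors aligned reads with STAR to mm10/GRCm38 (base calls by CASAVA 1.7, from the submitters' processing notes) and counted them on Ensembl genes with HTSeq. The deposited tables hold unnormalized counts, 1 table a sample. Reads without a single gene were left out of library sizes. Of the reads and alignments reported, 7.62% to 45.5% were not uniquely aligned, 5.35% to 15.4% fell on no gene and 1.29% to 2.66% were ambiguous, so genes with near copies are undercounted.

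Gene names and exon lengths came from GENCODE M21 (37693 of 39179 identifiers matched, 99.709% of counts). Of the 5 genes, 4 had promoter entries in RefSeq. CPM (TMM scaled) and RPKM were computed here. Groups were taken from the labels and compared by the robust quasi-likelihood test of edgeR 4.0.16 (R 4.3.3) after edgeR's expression filter, with Benjamini-Hochberg adjustment over all genes of a fit and an FDR threshold of 0.05. KO and WT were fitted within each tissue, brain regions over 12 samples and tissue levels over 22. Rate ratios of sparse counts carry exact 95% intervals. Alternatives were DESeq2 1.42.0, RLE size factors, no filter, a replicate block, a fit over 22 samples, WT or KO samples only, a pseudocount of 1, and single samples left out. The fits were also run on simulated counts, with the same relative spread for all genes and changes only in genes at or above the median level. That run does not speak for genes of low counts or for differences between cultures. The number of samples limits precision, with 2 or 3 per group.

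Pairing was checked by correlating deviations from genotype means. Same-numbered NPC samples correlated at 0.569, 0.705 and 0.524, so their numbers were taken to pair them. The main fits nevertheless held no block, and the block by number was run as an alternative. In PFC and STR the correlations lay between -0.032 and 0.133. Replicates differed by more than counting error, with a chi-square over its degrees of freedom of 1.834 to 37.26.

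The 5 genes, marker lists and pathway lists were chosen with earlier results of these data known. Genes named beside them are, for each list, those called between genotypes (at most 3 by p) and the 2 called farthest to each brain region, with the 3 most similar genes of each of the 5. A gene that this rule names is not reported here. For marker lists of cell types, calls between regions are given as counts or left out, with *Fezf2* alone named. *Chrna7*, *Chrna5* (in PFC) and *Gpr39* fall outside that rule and were named after their values were seen.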

Additional observations from a re-analysis of the deposited data

How the results depend on the processing

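In STR, NPCs and ESCs, 0 of the 5 genes were called under every alternative run. The number of all genes called moved. In PFC it was 98, and 379 without a filter, 175 in DESeq2, 1 in the fit over 22 samples and 2 to 154 with a sample left out. In STR it was 0, and 27 without a filter, 50 in DESeq2, 8 with the replicate block, 4 in the fit over 22 samples and 0 to 2 with a sample left out. In NPCs it was 1, and 2 without a filter, 3 in DESeq2, 3 with the replicate block, 2 in the fit over 22 samples and 0 with any sample left out. In ESCs it was 0, and 3 in DESeq2, 513 with the replicate block and 1 in the fit over 22 samples. Same-numbered ESC cultures correlated at 0.876, and those numbered 2 shared high fibroblast markers, but there are 2 pairs and no label of a shared batch or day, so the numbers were not taken to pair them. Under that block *Gnb4* had an FDR of 0.199, *Kif26b* 0.427 and *Crim1* 0.612. The block ended none of the 4 calls of the 5 genes between regions, and tissue levels were not fitted with a block. Of 30 comparisons of tissue levels 25 were called, and 23 to 25 with a sample left out. Among pairs without PFC, WT samples only lost the calls of *Crim1* in STR over NPCs and of *Kif26b* in STR over ESCs. Between regions 6374 genes were called, and 3791 with WT samples only. Of the 5 genes 4 were called, and 3 to 4 with a sample left out. Fits of 1 genotype share the PFC samples that chose the genes, so their calls of the 5 genes are not given. In a fit of KO samples only, the log2 difference of PFC over STR was -0.44 for *Lypd1* and 0.22 for *Crim1*. In the fit outside PFC, which was chosen after seeing the data, 1 gene was called, 4 in DESeq2 and 1 to 4 with a sample left out.

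Signs of changes that were not called turned with single samples left out. Log2 ranges were -0.069 to 0.23 for *Lypd1* in STR, -0.40 to 0.15 for *Lypd1* and -0.54 to 0.018 for *Gnb4* in NPCs, and -1.36 to 1.46 for *Crim1*, -1.68 to 2.77 for *Kif26b* and -0.16 to 0.62 for *Gnb4* in ESCs. They were -0.21 to 0.0525 for *Crim1* and -0.22 to 0.0803 for *Wdr66* in PFC minus STR effects, -0.0437 to 0.24 for *Gnb4* in STR over NPCs, and -0.34 to 0.58 for *Crim1*, -0.42 to 1.05 for *Kif26b* and -0.17 to 0.0713 for *Gnb4* outside PFC. With NPCs and ESCs only, *Crim1* was at -0.0285. The cause of these changes was not tested. Of the 3 most similar genes of each of the 5 genes, 11 of 15 stayed with a pseudocount of 1. Few samples per group and low counts of *Kif26b* and *Wdr66* limit the precision, and counting intervals cover counting error only.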
